A study of Arabidopsis thaliana with 24 samples.

Results

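Transcripts of seed storage proteins and oleosins were followed in Arabidopsis seedlings through 10 of the 33540 genes in the deposited table. They were the 12S globulins, or cruciferins, CRA1 (AT5G44120), CRB (AT1G03880) and CRC (AT4G28520), the 2S albumins SESA1 (AT4G27140), SESA2 (AT4G27150), SESA3 (AT4G27160), SESA4 (AT4G27170) and SESA5 (AT5G54740), and the oleosins OLEO1 (AT4G25140) and OLEO2 (AT5G40420). These genes were taken by their identity, though with earlier results of these data known. Cruciferins and 2S albumins fill the protein storage vacuoles of the mature embryo, and oleosins coat its oil bodies. Their genes are switched on during seed maturation by B3-domain factors (ABI3, FUS3 and LEC2), which bind RY elements, together with bZIP factors, which bind ACGT elements. After germination the transcripts decline and the stored protein and oil are broken down to feed the seedling.

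RNA was sequenced from whole wild-type Col-0 seedlings in 8 groups of 3 replicates (24 samples), and each replicate combined the RNA of 3 batches of seedlings. Seedlings were 2 or 7 days old, were grown at 22°C or 27°C under 8 h of light and 16 h of dark, and were harvested at dawn. All grew on medium with 0.1% DMSO, either alone (mock) or with 8.5 µM Heatin, a synthetic compound studied for its effect on hypocotyl elongation. Values are normalized reads per gene, that is, read counts divided by a depth factor of each sample. The number of reads assigned to genes was 19705950 in the shallowest sample and 60575036 in the deepest, and 1 read was worth 0.598 to 2.09 normalized reads. A value of 0 therefore allows up to 3 reads, or 1.79 to 6.27 normalized reads. Fold changes are differences of log2(normalized reads + 1) from limma, a scale on which changes of genes with few reads come out too small, and a gene was called at a Benjamini-Hochberg adjusted p below 0.1 over all genes tested.

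In the TAIR10.1 assembly SESA1, SESA2, SESA3 and SESA4 stand side by side on the plus strand of chromosome 4 (chr4:13607329-13614283), each as a single exon. OLEO1 (chr4:12900430-12901577, 2 exons) and CRC (chr4:14087556-14089796, 4 exons) are on the same strand of that chromosome. CRB lies on the plus strand at chr1:985751-988146 with 4 exons. On the minus strand of chromosome 5 are OLEO2 (chr5:16173340-16174783, 2 exons), CRA1 (chr5:17756238-17758336, 3 exons) and SESA5 (chr5:22238358-22239187, 1 exon). No stretch of 50 bases, the read length, from the joined exons of any of the 10 genes occurred a second time in the genome, so reads of 1 member could not be placed on another without mismatches.

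Promoters of 3 members are shown because the members varied together across samples. Each is the 250 bases before the annotated gene start in TAIR10.1 (RefSeq annotation), 5′ to 3′ on the strand of the gene, with CATGCA (the RY core) and ACGTG in capitals on either strand, overlapping matches included. SESA3 was read from chr4:13611546-13611795 (plus), SESA5 from chr5:22239188-22239437 (minus) and OLEO1 from chr4:12900180-12900429 (plus).
SESA3: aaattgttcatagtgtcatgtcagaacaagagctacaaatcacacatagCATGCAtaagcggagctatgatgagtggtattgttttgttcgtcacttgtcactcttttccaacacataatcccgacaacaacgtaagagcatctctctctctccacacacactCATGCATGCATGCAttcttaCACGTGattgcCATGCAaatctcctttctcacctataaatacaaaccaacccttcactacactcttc
SESA5: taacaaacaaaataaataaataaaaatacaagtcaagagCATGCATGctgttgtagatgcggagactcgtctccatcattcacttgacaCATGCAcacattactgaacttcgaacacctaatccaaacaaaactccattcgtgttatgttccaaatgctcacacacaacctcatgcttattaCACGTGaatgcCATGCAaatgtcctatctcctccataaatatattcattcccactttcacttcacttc
OLEO1: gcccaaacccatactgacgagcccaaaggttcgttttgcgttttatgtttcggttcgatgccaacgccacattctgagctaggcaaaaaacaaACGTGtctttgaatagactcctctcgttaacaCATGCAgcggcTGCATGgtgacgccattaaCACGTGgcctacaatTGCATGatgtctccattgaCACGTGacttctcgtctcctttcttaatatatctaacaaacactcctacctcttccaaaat

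The promoters of 7 members were read here, those of CRC, OLEO1 and SESA1 to SESA5, and those of the other 3 are not reported. CATGCA was found in all 7, and 8.43% of the 27443 promoters of protein-coding genes of the same length hold it. ACGTG was found in the same 7, against 22.91%, and 2.22% of all promoters hold both motifs. The palindrome CACGTG, which holds ACGTG on both strands, occurred in OLEO1 and the 5 albumins, against 6.49%. In SESA1 to SESA5 it was followed after 5 bases by CATGCA, whose first base was 54 to 57 bases before the gene start. That arrangement, CACGTGNNNNNCATGCA on either strand, was picked after reading these promoters, and 9 of all 27443 promoters hold it, 5 of them the albumins. These matches describe the letters only.

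Transcripts of all 10 members were detected in each of the 12 samples of 2 days, but at very unequal levels. CRA1, the cruciferin with the most reads in total at each age, was at 190, 403 and 254 normalized reads in the 3 mock replicates at 22°C and at 1396, 176 and 1495 in those at 27°C. With Heatin it was at 960, 1645 and 67.1 at 22°C and at 654, 1387 and 732 at 27°C. The ranges overlapped except that of mock at 22°C with that of Heatin at 27°C. Over the 12 samples of 2 days CRC ranged from 47.4 to 999, SESA5 from 27.9 to 875, OLEO1 from 21.9 to 396 and OLEO2 from 5.84 to 235. SESA2 ranged from 1.03 to 375. Per kilobase of exon, so that genes can be compared, the mean level in mock seedlings of 2 days at 22°C was 151 normalized reads for CRA1, 136 for SESA5, 112 for CRC and 102 for OLEO1. It was between 23.8 (CRB) and 55.6 (SESA3) for the other 6.

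**Figure D1:**
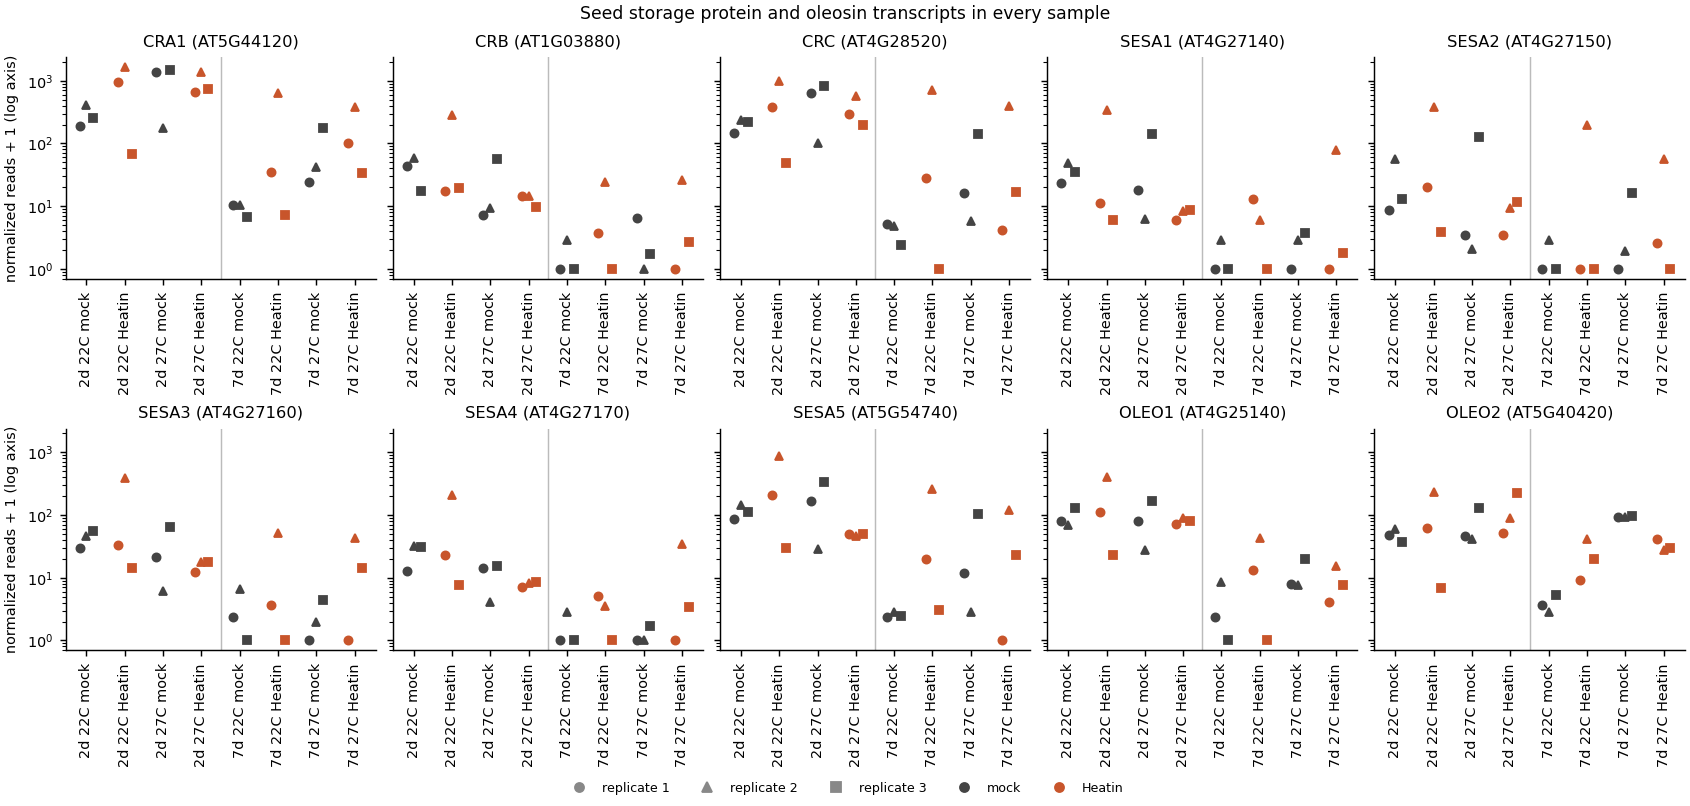
Normalized reads + 1 of each member (vertical log axis) in every sample of the 8 groups (horizontal axis), with mock in dark grey, Heatin in orange and the replicate number as the symbol. The 2-day samples are left of the grey line and the 7-day samples right of it. CRA1 spans 67.1 to 1645 normalized reads at 2 days, and OLEO2 lies between 90.7 and 95.6 in mock seedlings of 7 days at 27°C.

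The spread between replicates was the most marked property of these genes. The SD within groups of log2(normalized reads + 1) had a median of 1.504 over the 10 members at 2 days, against 0.159 over the 23140 genes tested, and of 2.04 at 7 days, against 0.123 over 23252 genes. At 2 days each of the 10 was 3.63 to 13.97 times the SD that limma fitted for genes of the same level. CRA1 stood highest on that measure, with an SD of 1.56 where 0.112 was fitted. At 7 days the ratio was 1.64 to 7.68, and CRC, at 3.16, had the largest SD among the members. OLEO2 had the smallest at that age, 0.613 against 0.367 fitted. A ratio of 2 or more was found in 10 of 10 members at 2 days and in 8 of 10 at 7 days (all but SESA4 and OLEO2), and in 9.94% and 4.09% of all genes tested. At 2 days it was also found in 8 of 8 dry seed genes, 5 of 5 other storage protein genes, 2 of 2 storage vacuole aquaporins and 7 of 8 other oil body genes. It was found in 2 of 8 activators and 0 of 9 repressors of seed genes and in 2 of 8 seedling tissue genes. At 7 days it held for 4 of 8 dry seed genes, 3 of 4 other storage protein genes, 1 of 2 aquaporins and 1 of 6 other oil body genes.

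**Figure D2:**
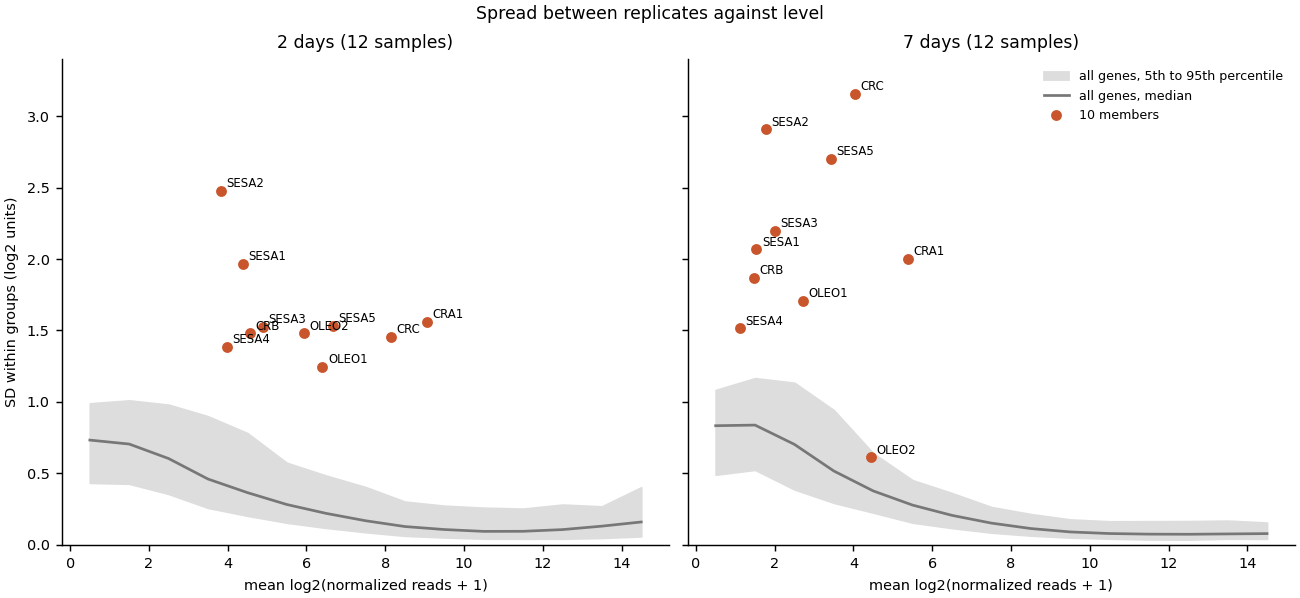
SD within groups (vertical axis, log2 units) against mean log2(normalized reads + 1) (horizontal axis) for the 12 samples of each age. The grey band holds the middle 90% of all genes in bins 1 log2 unit wide, the line is their median, and the points are the members. All 10 members lie above the band at 2 days, and OLEO2 lies at its upper edge at 7 days with an SD of 0.613, below the other 9.

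The members went up and down in the same replicates. Replicate 2 of Heatin at 22°C and 2 days was the highest of its group for 10 of 10 members, and replicate 3 was the lowest for 9. SESA2, for example, was at 19.4, 375 and 2.92 there, a 129-fold range. In mock at 27°C and 2 days replicate 3 was the highest for 10 of 10. At 7 days replicate 2 was the highest for 8 of 10 with Heatin at 22°C and for 9 of 10 with Heatin at 27°C, and replicate 3 for 9 of 10 in mock at 27°C. In the remaining 3 groups 1 replicate was the highest for 6 to 8 of the 10.

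Summed over the 10 members, the libraries of Heatin at 22°C and 2 days held 1813, 5744 and 217 normalized reads, and those of Heatin at 22°C and 7 days 122, 1969 and 27.2. The 8 dry seed genes (such as the LEA proteins EM1 and EM6 and the dehydrin RAB18) had a like spread in the first of these groups, with sums of 199 to 5035. In the second their sums spread less, at 585 to 907, a 1.55-fold range against 72.5-fold for the members. The lowest of the sums of the members there rested on 13 reads. In mock at 22°C and 7 days most of the dry seed sum was RAB18, so these sums mainly follow their most abundant gene. By gene, 4 of the 8 had at least 2 times the fitted SD at 7 days, beside 4.09% of all genes. At that age replicate 2 was the highest for 5 of the 8 with Heatin at 22°C and for 3 of the 8 with Heatin at 27°C. With Heatin at 27°C and 7 days the dry seed sums lay between 2039 and 2413, while those of the members ran from 123 to 1173. Of the 3 genes of the endosperm of germinating seed (EPR1, EXPA2 and MAN7), the sums were 811 to 2499 with Heatin at 22°C and 2 days and 441 to 479 at 7 days. At 7 days EXPA2 was at no more than 6.98 normalized reads in any library, and EPR1 reached 58.3 with Heatin at 22°C and 66.5 with Heatin at 27°C, against at most 9.07 in mock. All 3 were highest in replicate 2 of Heatin at 27°C and 7 days, where 9 of the 10 members were highest too. The 8 seedling tissue genes (RBCS1A, LHCB1.3, RCA, EXPA7, COBL9, SCR, FAMA and SUC2) had sums, carried by the most abundant of them, that differed at most 1.48-fold within any group, while 2 of the 8 had at least 2 times the fitted SD at 2 days. Whether seed remains or seeds that had not germinated moved with the members was not tested, and in such bulk samples fewer cells of a type and less RNA per cell cannot be told apart.

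**Figure D3:**
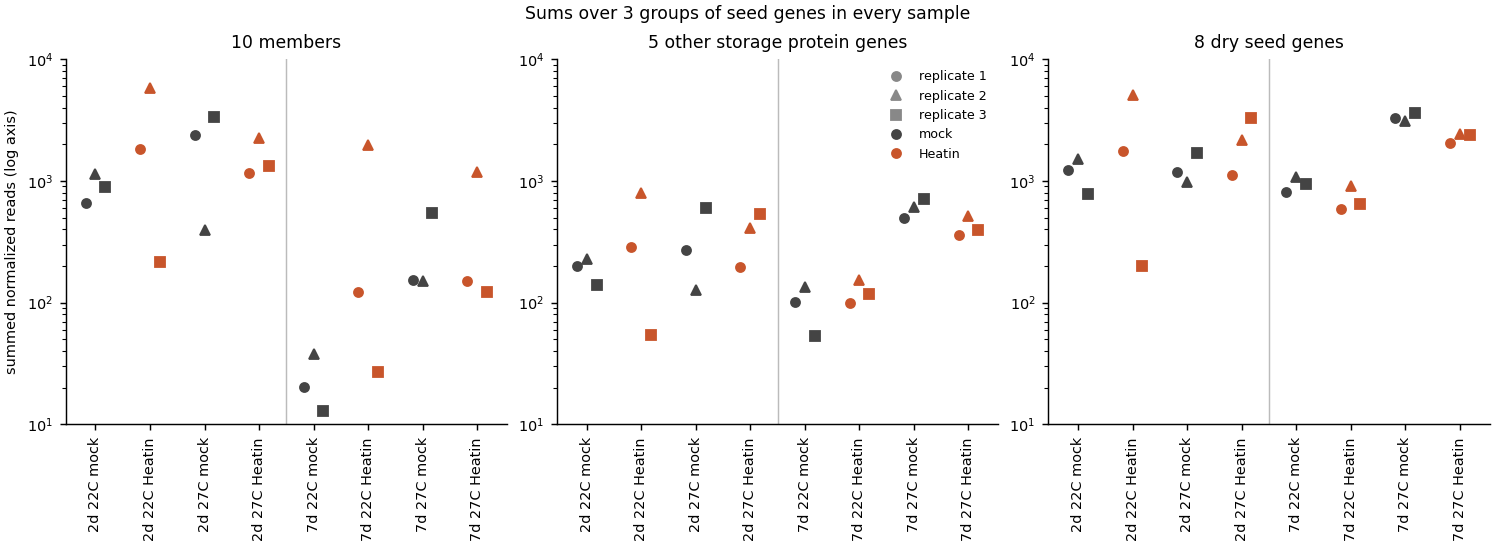
Summed normalized reads (vertical log axis) of the 10 members, of 5 other storage protein genes and of 8 dry seed genes in every sample of the 8 groups (horizontal axis). Colours and symbols give the compound and the replicate number. At 7 days the members span 12.9 to 1969, with replicate 2 of Heatin at 22°C on top. The dry seed sums separate by temperature there and differ less between replicates. By gene, 4 of the 8 had at least 2 times the fitted SD at 7 days.

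To ask how the transcripts change as the seedling grows, 7 days was compared with 2 days in 1 fit of all 24 samples. In mock at 22°C all 10 members fell, with a median log2 fold change of -4.62 beside -0.01 for all genes, and 38.6% of the 23427 genes tested were called lower. CRA1 went from 190, 403 and 254 to 9.55, 9.44 and 5.75 normalized reads (log2 fold change -4.90, SE 1.27, limma adjusted p = 0.00161). CRC, at 147, 237 and 220 at 2 days, was at 4.09, 3.78 and 1.44 (-5.67, SE 1.74, adjusted p = 0.00603). For OLEO1 the levels were 80.7, 67.3 and 130 and then 1.36, 7.55 and 0 (-5.05, SE 1.07, adjusted p = 0.000221). The groups did not overlap for any of the 10, which held for 38.4% of all genes tested in this direction. SESA2 had the weakest call (-3.72, SE 1.92, adjusted p = 0.0881). With limma voom on the reads 3 of the 10 were called (CRB, SESA4 and OLEO1), and the calls on CRA1 and CRC were lost. At 7 days CRB, SESA1, SESA2 and SESA4 had 1 read each over the 3 mock libraries of 22°C, so that their fold changes rest on the added 1.

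In mock at 27°C 7 of 10 members fell with age (CRA1, CRB, CRC, SESA1, SESA3, SESA4 and OLEO1), where 35.4% of all genes were called lower. The median over the 10 was -2.98. The groups did not overlap for 6 of them, beside 34.4% of all genes. OLEO2 went the other way without passing the test, from 45.2, 40.3 and 130 to 92.8, 90.7 and 95.6 (0.58, SE 0.81, adjusted p = 0.545). SESA5, at 164, 27.9 and 331 and then 10.9, 1.89 and 101, also missed it (-2.94, SE 1.56, adjusted p = 0.102). The count of 7 fell to 2 without replicate 3 of mock at 2 days and to 4 without replicate 1 of mock at 7 days.

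With Heatin 7 of 10 members fell at 22°C (all but SESA2, SESA5 and OLEO2, 38.8% of all genes called lower) and 4 of 10 at 27°C (CRA1, CRC, OLEO1 and OLEO2, 35.7%). SESA4 at 22°C went from 22.4, 212 and 6.57 to 4.06, 2.48 and 0 (-3.69, SE 1.05, adjusted p = 0.00347). OLEO1 at 27°C went from 71.0, 87.3 and 78.9 to 3.12, 14.3 and 6.53 (-3.36, SE 1.07, adjusted p = 0.0085). The groups did not overlap for 1 member at 22°C (SESA4), beside 37.5% of all genes, so that 6 of the 7 called there overlap. At 27°C they did not for 3 (CRA1, OLEO1 and OLEO2), beside 34.2%. At 22°C the count of 7 was 2 without replicate 2 of 2 days and 2 without replicate 3 of 7 days. At 27°C the count of 4 was 1 without replicate 2 of 2 days and 1 without replicate 3 of 7 days. The age comparisons of mock and Heatin share no samples, but the difference between them was not tested.

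**Figure D4:**
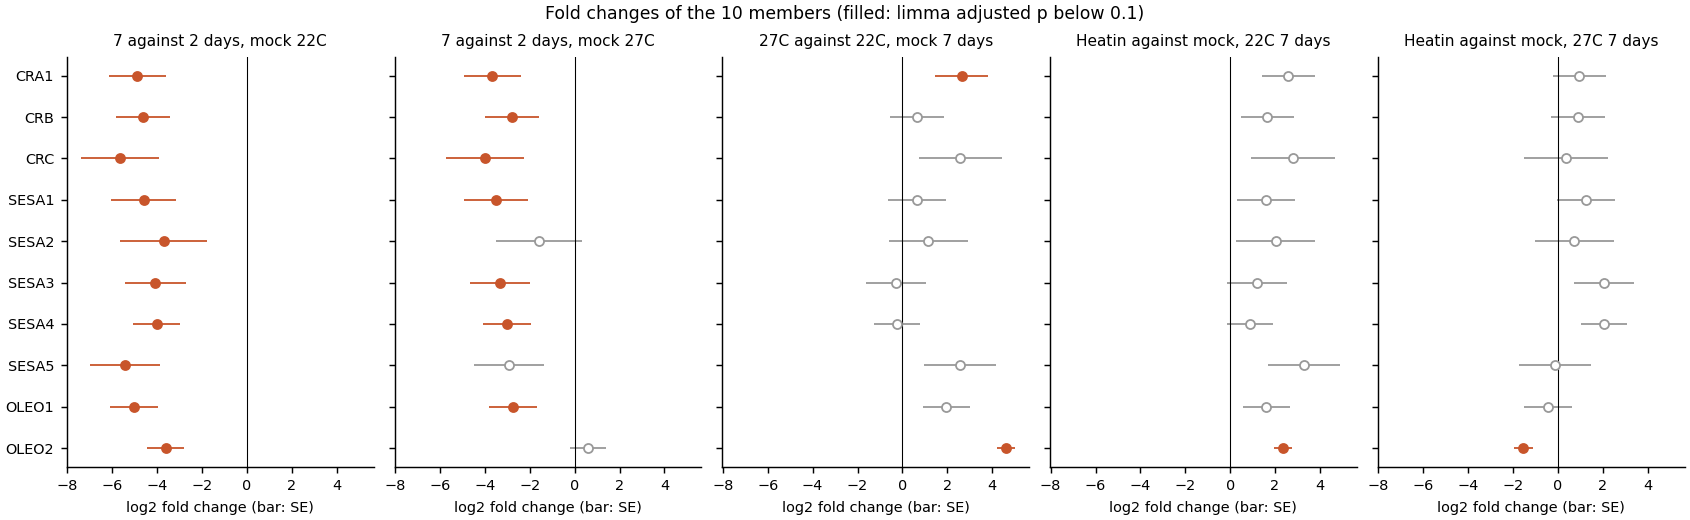
Log2 fold changes (horizontal axis, points) with their SE (bars) of the 10 members in 5 comparisons, filled where limma's adjusted p was below 0.1. All 10 are below 0 for age in mock at 22°C, and OLEO2 is at 4.61 for 27°C against 22°C in mock at 7 days, at 2.35 for Heatin at 22°C and at -1.53 for Heatin at 27°C.

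The response to warmth was asked by comparing 27°C with 22°C. At 2 days no member passed the test in mock, where 35.3% of all genes were called higher and 34.3% lower. At an unadjusted p below 0.05 there were likewise 0 members by limma, and limma voom on the reads called 0. edgeR and DESeq2 on the reads each called CRA1 higher, and a fit of the 6 samples alone called SESA4 lower. Without replicate 2 of 27°C CRA1 was called higher, and without replicate 3 of 27°C CRB was called lower. With Heatin 1 of 10 fell at 27°C, beside 34.4% of all genes. This was SESA4, at 22.4, 212 and 6.57 against 6.23, 7.28 and 7.61 normalized reads, groups that overlap (-2.06, SE 0.94, adjusted p = 0.075). The call was lost without replicate 2 at 22°C, where OLEO2 was called higher instead, and without any of the 3 replicates at 27°C. Without replicate 1 at 22°C 2 members were called lower, and without replicate 3 at 22°C 7 were. edgeR on the reads called 6 members lower (CRB and SESA1 to SESA5).

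Within the 2-day samples the balance between cruciferins and albumins stood apart by temperature. The ratio of the cruciferins CRA1 and CRC to the albumins SESA1 to SESA4, both summed in normalized reads, was 4.72, 3.56 and 3.66 in mock at 22°C and 38.0, 19.0 and 6.65 in mock at 27°C. With Heatin it was 15.7, 2.02 and 4.13 at 22°C and 38.1, 49.1 and 21.7 at 27°C. Samples at 27°C were above those at 22°C in each of the 2 arms, without overlap. With CRB and SESA5 included the ratios were smaller, at 2.45, 2.16 and 2.04 in mock at 22°C, 9.42, 6.68 and 3.49 in mock at 27°C, 4.64, 1.34 and 2.33 with Heatin at 22°C and 13.1, 23.3 and 10.2 with Heatin at 27°C, again without overlap within an arm. CRB did not follow CRA1 in mock, being 22.7, 14.1 and 6.55% of it at 22°C and 0.437, 4.71 and 3.68% at 27°C. With Heatin these percentages were 1.70, 17.2 and 27.2 at 22°C and 2.10, 0.962 and 1.17 at 27°C, groups that overlap. The ratio does not depend on the depth factor of a sample. It was looked at after the values were seen and is given with no test. SESA1 to SESA4 together rested on 14 to 2195 reads in the 2-day libraries. At 7 days 3 libraries had no read of these 4 genes, and the ratio of CRA1 and CRC to them was not compared there. With CRB and SESA5 included, the 7-day ratios in mock were 5.0, 1.143 and 5.0 at 22°C and 4.0, 8.167 and 2.52 at 27°C. With Heatin they were 1.679, 2.692 and 3.0 at 22°C and 67.0, 2.471 and 1.298 at 27°C. The temperatures thus overlapped in each arm at 7 days. These ratios rest on few reads, the 10 members together having 15, 20 and 9 in mock at 22°C.

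**Figure D5:**
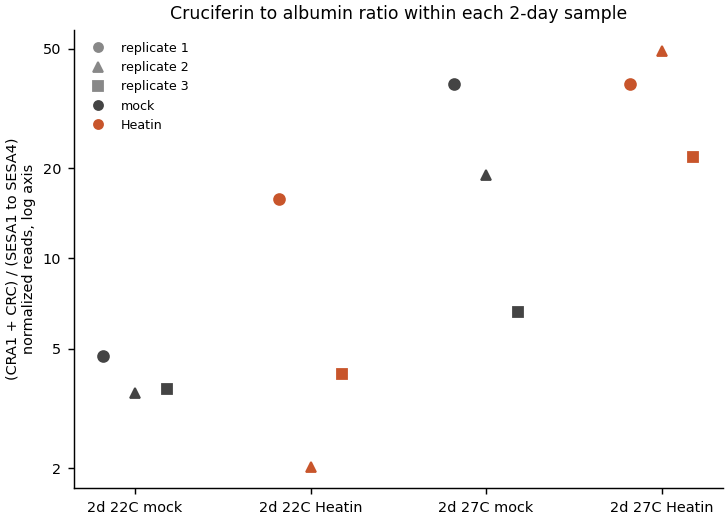
Ratio of summed CRA1 and CRC to summed SESA1 to SESA4 (vertical log axis) in each 2-day sample of the 4 groups (horizontal axis), with colours for the compound and symbols for the replicate number. The 22°C samples lie between 2.02 and 15.7 and the 27°C samples between 6.65 and 49.1, with no overlap within mock or within Heatin.

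At 7 days 2 of 10 members rose at 27°C in mock, beside 28.8% of all genes. OLEO2 was at 2.73, 1.89 and 4.31 normalized reads at 22°C and at 92.8, 90.7 and 95.6 at 27°C. This difference was 24.4-fold on the log2(value + 1) scale (4.61, SE 0.41, limma adjusted p = 1.17e-07), with 6 reads over the 3 libraries at 22°C and 301 at 27°C. It was called under every alternative run. CRA1 rose from 9.55, 9.44 and 5.75 to 23.2, 41.6 and 172 (2.64, SE 1.18, adjusted p = 0.0691). That call was lost without any 1 of the mock replicates at 22°C or without replicate 3 at 27°C. CRC (2.58, SE 1.86, adjusted p = 0.255) and SESA5 (2.58, SE 1.60, adjusted p = 0.188) were higher in every replicate without passing the test, which makes 4 members without overlap beside 29.2% of all genes. For CRC (at most 4.09 normalized reads at 22°C and at least 4.72 at 27°C) and for SESA5 the gap between the groups was smaller than 1 read. SESA3 and SESA4 had at most 5.66 normalized reads in these 6 libraries.

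The warmth response of OLEO2 in mock differed between the ages. At 2 days it was at 46.7, 59.95 and 36.3 at 22°C and at 45.2, 40.3 and 130 at 27°C, groups that overlap. The difference of the 2 responses was 4.21 (SE 1.15, limma adjusted p = 0.0054), and OLEO2 was the 1 member of 10 called for it, beside 22.6% of all genes called higher. Over all genes this contrast called 5286 higher and 6458 lower, and 6550 and 5138 when scaled to the reads on genes. The call on OLEO2 was lost with limma voom on the reads.

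With Heatin at 7 days no member was called between the temperatures, beside 29.4% of all genes called higher, and 0 passed at an unadjusted p below 0.05. limma voom, edgeR and DESeq2 on the reads each called 0 as well. OLEO2 was at 8.12, 40.9 and 18.8 at 22°C and at 40.5, 26.9 and 28.6 at 27°C (0.73, SE 0.41, adjusted p = 0.149). Without replicate 2 at 22°C OLEO2 and CRA1 were called higher, and without replicate 1 at 27°C SESA4 was.

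Heatin was compared with mock at each age and temperature. These comparisons share their mock samples with the temperature comparisons above. At 2 days no member was called at either temperature, beside 1 gene of 23140 called higher at each (0.00432%). At an unadjusted p below 0.05 there were also 0 members, and limma voom, edgeR and DESeq2 each called 0, DESeq2 with 1 member left without an adjusted p.

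At 7 days OLEO2 was the 1 member of 10 called for Heatin at either temperature, and in opposite directions. At 22°C it rose from 2.73, 1.89 and 4.31 normalized reads in mock to 8.12, 40.9 and 18.8 (2.35, SE 0.41, limma adjusted p = 0.00794), beside 1.39% of all genes called higher. At 27°C it fell from 92.8, 90.7 and 95.6 to 40.5, 26.9 and 28.6 (-1.53, SE 0.41, adjusted p = 0.0538), beside 3.1% called lower. The replicates of OLEO2 did not overlap in either comparison, which held for 8.29% of all genes as higher at 22°C and for 11.8% as lower at 27°C. The difference of the 2 effects was -3.88 (SE 0.59, adjusted p = 0.00727), beside 0.447% of all genes called lower. With Heatin the OLEO2 levels of the 2 temperatures thus overlapped, where those of mock did not. The call at 27°C was lost without any 1 of the mock replicates and without replicate 2 or 3 of Heatin, with an adjusted p of at most 0.161. The calls at 22°C, at 27°C and on the difference were all lost when the 2-day samples entered the fit.

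The other 9 members were not called for Heatin at 7 days, although they had high values in single libraries. CRC was at 27.1, 717 and 0 normalized reads with Heatin at 22°C, and at 3.12, 401 and 15.5 at 27°C. SESA5 was at 19.0, 257 and 2.09 at 22°C against 1.36, 1.89 and 1.44 in mock (3.30, SE 1.60, adjusted p = 0.416), where the 2.09 and the 3 mock values are 1 read each and differ only by depth. The median over the 10 was 1.85 at 22°C and 0.81 at 27°C, beside -0.01 for all genes in each. DESeq2 on the reads called CRA1, CRC and OLEO2 higher at 22°C.

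Other genes of the same compartments were read from lists that hold no member. Among 5 further storage protein genes, 4 were tested at 7 days and all 4 rose at 27°C in mock, beside 28.8% of all genes called higher. The vicilin-like AT2G28490 was at 4.31 to 9.44 normalized reads at 22°C and 87.3 to 120 at 27°C (3.64, SE 0.48, limma adjusted p = 8.41e-06), and PAP85 (AT3G22640) at 33.0 to 68.0 and 258 to 375 (2.63, SE 0.23). AT2G18540 (2.58) and AT4G36700 (2.32) also rose, each without overlap. For the fifth gene, CRD (AT1G03890), all 6 libraries were at 0. Of these 4, 3 fell with Heatin at 27°C: AT2G28490 to 11.4 to 47.5 normalized reads (-1.85), AT2G18540 (-1.88) and AT4G36700 (-2.21). The limma adjusted p-values were 0.0453, 0.00295 and 0.0543, and 3.1% of all genes were called lower. Without replicate 1 or 3 of mock the calls on AT2G28490 and AT4G36700 were lost, and that on AT2G28490 also without replicate 3 of Heatin, that on AT4G36700 without replicate 2 of mock or replicate 1 of Heatin. All 3 calls were lost when the 2-day samples entered the fit, and that on AT4G36700 also with robust moderation and with DESeq2 on the reads. PAP85 was at 306 to 416, and its groups overlap.

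Of 9 other oil body genes 6 were tested at 7 days, and 3 rose at 27°C in mock, AT2G25890 (0.87), AT1G48990 (1.81, with 1 read at 22°C) and OLEO4 (1.496, groups that overlap), beside the 28.8% of all genes called higher. The OLEO4 call held in 10 of 20 alternatives and was lost without replicate 2 of 22°C or replicate 1 or 2 of 27°C. AT2G25890 fell with Heatin at 27°C (-0.97, limma adjusted p = 0.0286), a call lost without replicate 3 of mock or replicate 2 of Heatin. It was also lost when the 2-day samples entered the fit. OLEO3 (AT5G51210) fell with age and had little spread. It was at 822 to 1009 normalized reads in mock at 22°C and at 15.8 to 17.7 at 7 days (-5.69, SE 0.21, adjusted p = 1.2e-15). At 27°C it went from 1726 to 2085 down to 11.2 to 17.01 (-7.00). In mock at 22°C 6 of the 8 tested oil body genes fell with age and 1 rose (AT2G25890, 1.06), beside 38.6% and 38.1% of all genes. The tonoplast aquaporins of the storage vacuole, TIP3;1 (2.26) and TIP3;2 (4.09), both rose at 27°C in mock at 7 days. All 8 dry seed genes rose there, by a median of 2.24, RAB18 from 610 to 807 normalized reads up to 1913 to 2318. With age in mock at 22°C 4 of the 8 fell and 2 rose (RAB18, 1.66, and DOG1, 4.28). With Heatin 2 of the 8 fell at 27°C (EM6, -1.45, and PER1, -1.74), beside 3.1% of all genes called lower. Each of these calls at 27°C was lost when the 2-day samples entered the fit. At 22°C 2 of the 8 fell (RAB18, -0.51, groups that overlap, and PER1, -0.78), beside 1.08%. The calls at 22°C held in 11 of 20 alternatives for RAB18 and 10 of 20 for PER1, and both were lost with limma voom and edgeR on the reads and without replicate 2 of mock or replicate 1 or 3 of Heatin.

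Of the 8 tested activators of seed genes, ABI3 (-2.49), ABI5 (-1.01) and bZIP53 (-0.41) fell with age in mock at 22°C while bZIP10 and bZIP25 rose. Of all genes 38.6% were called lower and 38.1% higher for that. ABI5 (1.06), bZIP25 (0.46) and bZIP53 (0.50) rose at 27°C in mock at 7 days. Of the 9 repressors, VAL1, SWN, HDA19 and ASIL1 rose there and PKL, CLF and FIE fell. In that comparison 28.8% of all genes were called higher and 32.9% lower. Neither list had a call for Heatin at 7 days. Among the 9 genes of storage protein processing and breakdown 7 rose at 27°C in mock at 7 days, beside the same 28.8%. With Heatin at 27°C 2 of the 9 fell, bVPE (-0.52) and dVPE (-1.74), vacuolar processing enzymes of the seed. Of all genes 3.1% were called lower for Heatin at 27°C. The 3 oil body breakdown genes (SDP1, AT4G10790 and AT3G14360) had sums within 1.10-fold in every group, where those of the members differed up to 72.5-fold, and SDP1 and AT4G10790 rose at 27°C in mock at 7 days. All 3 endosperm genes fell with age in mock at 22°C, and MAN7 rose at 27°C in mock at 7 days. Of the 8 seedling tissue genes 6 fell at 27°C in mock at 7 days, beside 32.9% of all genes, and with Heatin at 27°C the root hair genes EXPA7 and COBL9 fell.

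By Pearson r with the mean of the 10 members over the 24 samples, the members themselves stood at 0.870 to 0.952 except OLEO2, at 0.637. Each member is part of that mean, which raises its r, so members and non-members are not compared on equal terms. The non-members most like them were LCR67 (AT1G75830, a plant defensin, 0.938), the caleosin CLO2 (AT5G55240, 0.920), ATECP31 (AT3G22500, a LEA protein, 0.877), AT2G05580 (0.869) and AT1G14950 (0.864). Over the 12 samples of 7 days they were LCR67 (0.952), CLO2 (0.918), bbx23 (AT4G10240, 0.910), the plastid gene ATCG00640 (0.858) and CKI1 (AT2G47430, 0.836), and OLEO2 was at 0.411. The samples share libraries and the age difference, so these values describe likeness only.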

How the data were processed

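Normalized reads per gene were deposited for each of the 24 samples. Per the labels and the study's methods, the authors mapped single-end reads of 50 bases to TAIR10 with TopHat, counted reads per gene with HTSeq without regard to strand and divided each sample's counts by a DESeq depth factor. This deposited signal was a whole multiple of 1 step in 100% of values (tolerance 0.01 reads), which gave back the read counts. Antisense reads cannot be told apart. The 5 summary lines per sample were left out.

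log2(normalized reads + 1) was tested with limma 3.58.1 (R 4.3.3, trend), 1 mean per group, genes with a mean of at least 1, within an age from its 12 samples and across ages from all 24. limma voom, edgeR 4.0.16 and DESeq2 1.42.0 on the reads, other pseudocounts, filters, scalings, thresholds, a replicate block and each replicate left out were alternatives. The fit was tested on simulated data for temperature in mock within an age only, at the spread fitted for genes of a level. The members spread more than that, so the simulation does not bear on them. All 10 members are named. Of each list at most 3 genes with the highest mean are named, plus any that a count of 5 or fewer rests on, and the 5 non-members most like the members. Members and lists were chosen with earlier results of these data known. Sequences and positions are from RefSeq TAIR10.1, while the files carry no coordinates. The promoters and the exon stretches were not used in any test. The promoters of 3 members are not reported here.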

Additional observations from a re-analysis of the deposited data

Results flagged for a closer look

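2 results on OLEO2 differed between groups by a test of the difference itself. Its response to 27°C in mock differed between 7 and 2 days by 4.21 on the log2 scale (limma adjusted p = 0.0054). Its response to Heatin at 7 days differed between 27°C and 22°C by -3.88 (adjusted p = 0.00727), being lower in 3 of 3 Heatin samples at 27°C and higher in 3 of 3 at 22°C.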

How the results depend on the processing

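No called fold change of a member changed sign under any alternative. Of 683 recomputed values of the 35 called member results, 576 stayed past the threshold and 107 did not, while 60 of 105 uncalled results changed sign under at least 1 alternative. The cause of the changes below was not tested. With limma voom on the reads the members called for age were 3 of 10 in mock at 22°C, 2 in mock at 27°C, 3 with Heatin at 22°C and 2 with Heatin at 27°C, in place of 10, 7, 7 and 4. It called 0 for temperature with Heatin at 2 days, 1 for temperature in mock at 7 days, 0 for Heatin at 22°C and 7 days and 0 for temperature by age. A fit of the compared groups alone gave 4 for age with Heatin at 22°C, 1 and 0 for temperature at 2 days in mock and with Heatin, 5 for temperature in mock at 7 days and 2 for temperature by age. A threshold of 0.05 gave 2 for age with Heatin at 27°C, 0 for temperature with Heatin at 2 days, 1 for temperature in mock at 7 days and 0 for Heatin at 27°C and 7 days. No filter and robust moderation each gave 2 for age with Heatin at 27°C, and robust moderation and a pseudocount of 10 each gave 1 for temperature in mock at 7 days. edgeR and DESeq2 on the reads called 6 and 5 for temperature with Heatin at 2 days. DESeq2 called 4 for temperature in mock at 7 days and 3 for Heatin at 22°C and 7 days. With all 24 samples in 1 fit, Heatin at 22°C, Heatin at 27°C and Heatin by temperature at 7 days each called 0.

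Leaving out each replicate gave 9 to 10 members for age in mock at 22°C, 2 to 8 in mock at 27°C, 2 to 10 with Heatin at 22°C and 1 to 6 with Heatin at 27°C. For temperature it gave 0 to 1 in mock and 0 to 7 with Heatin at 2 days, and 1 to 3 in mock and 0 to 2 with Heatin at 7 days. For Heatin it gave 0 at 2 days, 1 at 22°C and 0 to 1 at 27°C at 7 days. Samples with the same replicate number deviated together at 2 days (mean correlation 0.258 over 18 pairs, against -0.125 between different numbers), but 15 of the 18 pairs were over 0.1, and at 7 days 10 of 18 (mean 0.0879). Since not every pair was, and the labels name no shared source, the numbers were not taken as pairs. The replicate block moved temperature with Heatin at 2 days from 1 to 2 members and temperature in mock at 7 days from 2 to 3. Scaling to the reads on genes put the median log2 fold change of all genes for age in mock at 22°C at -0.15 in place of -0.01 and for temperature by age at 0.06 in place of -0.04. Against these medians the called members kept their direction. Few reads limit the 7-day values: CRB, SESA1, SESA2 and SESA4 rested on 1 read each in mock at 22°C.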
